A study of Mus musculus with 6 samples.

Results

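Complement was examined through 8 genes in bone marrow-derived macrophages (BMDMs). They encode the chains of C1q (C1qa, C1qb and C1qc), the central component C3, factor B (Cfb), properdin (Cfp) and the anaphylatoxin receptors C3ar1 and C5ar1. The 8 genes were chosen by name from the 54446 genes of the count table. Another 46 genes of the complement system were followed beside them, as a list of components, regulators and receptors.

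The cells came from bone marrow of male BALB/c mice, 6 to 8 weeks old, and were grown for 7 days in medium with 20% conditioned medium of L929 cells, a fibroblast line that secretes CSF-1. The M0 macrophages had no polarizing agent, and their time in culture after that is not given in the sources used here. For 24 hours the M1 macrophages had LPS at 50 ng/mL together with IFN-γ at 20 ng/mL, and the M2 macrophages had IL4 at 20 ng/mL. In each state, 1 culture condition received regorafenib, a multikinase inhibitor, and the other was the control, for which DMSO is given as the vehicle. The dose and timing given are 1 µM and 1 hour ahead of the polarizing agents, and neither is given separately for M0. RNA of each condition was sequenced as 1 library, so there were 6 libraries. Neither the number of mice behind a library nor whether mice were pooled is given in the sources used here, and no difference between a pair of libraries has a replicate check.

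The libraries held between 25359309 and 34898342 counts. All 8 macrophage markers examined (among them Adgre1, Csf1r and Lyz2) were detected, and their summed level was 21907 to 48516 CPM, the count relative to the TMM-scaled library size. Lyz2 held most of each sum, with 16711 to 42740 CPM. None of 5 lymphocyte markers reached 10 counts in a library. Genes typical of the IFN-γ and LPS response summed to 19742 and 14969 CPM in the control and regorafenib M1 libraries and to 14.7 to 82.8 CPM in the other 4. Between the M1 libraries Nos2 was lower with regorafenib (15894 and 9196 CPM), and the other 4 genes of that set had higher values. Genes induced by IL4 summed to 1352 and 652 CPM in M2 and to 5.15 to 33.8 CPM elsewhere. Between the M2 libraries Arg1 (597 and 36.4 CPM), Mrc1 (664 and 461 CPM) and Mgl2 (55.2 and 10.9 CPM) were lower with regorafenib. Retnla (25.8 and 119.7 CPM) and Chil3 (10.4 and 24.1 CPM) were higher. The 6 dendritic cell markers summed to 32.0 and 38.8 CPM in M1 and to 0.485 to 2.79 CPM in the other libraries. Of the M1 sums, Ccr7, a chemokine receptor, made up 30.2 and 34.3 CPM and Xcr1 1.39 and 4.23 CPM, while Clec9a and Cd209a had 0 counts there. The 6 neutrophil markers summed, control and then regorafenib, to 84.8 and 158 CPM in M0, 157 and 110 CPM in M1, and 88.8 and 132 CPM in M2. Mpo held most of each sum, S100a8 had 69.8 and 20.3 CPM in M1 and 1.39 to 4.004 CPM elsewhere, Camp had 108 and 91 counts in M1 and 0 or 1 elsewhere, and Ly6g had 0 counts in every library. The 5 fibroblast markers summed to 3.19 CPM in the M0 control and 10.2 CPM in M0 with regorafenib, to 8.86 and 6.68 CPM in M1, and to 3.56 and 5.76 CPM in M2. The part of these other cells in the values below was not tested. In bulk RNA, fewer cells of a type and less RNA per cell cannot be told apart.

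Complement is a cascade of plasma and locally made proteins that tags microbes and dying cells for removal. The classical pathway starts when C1q binds immune complexes or cell debris, and the alternative pathway amplifies the deposition of C3 on a surface through factor B, with properdin holding the convertase together. Cleavage of C3 and C5 releases small fragments, the anaphylatoxins, which are sensed by the receptors encoded by C3ar1 and C5ar1. Macrophages make C1q and properdin themselves, and they raise C3 and factor B when stimulated by microbial products.

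The genes lie on 5 chromosomes and all are on the minus strand (GRCm38, Gencode M21). C1qb, C1qc and C1qa are neighbours on chromosome 4, at chr4:136880129-136886187, chr4:136889804-136893065 and chr4:136895917-136898803. C3 lies at chr17:57203970-57228136 and Cfb at chr17:34856374-34862518 on the same chromosome. Cfp lies at chrX:20925454-20931555, C3ar1 at chr6:122847138-122856161 and C5ar1 at chr7:16246743-16259540. Their Ensembl identifiers, in the same order from C1qa, C1qb and C1qc to C5ar1, are ENSMUSG00000036887.5, ENSMUSG00000036905.8, ENSMUSG00000036896.5, ENSMUSG00000024164.15, ENSMUSG00000090231.10, ENSMUSG00000001128.7, ENSMUSG00000040552.8 and ENSMUSG00000049130.6.

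Of Cfb's exon bases, 79.5% are also exon of the read-through gene Gm20547 on the same strand. A read in the shared part is ambiguous to the counter and is left out, so the level of Cfb is not compared with that of other genes here. The other 7 genes share no exon base with another gene on their strand.

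RefSeq's table of promoters (GRCm38.p6) holds 6 of the 8 genes: C1qb, C1qc, C3, Cfp, C3ar1 and C5ar1. The stretches from 250 bases before to 30 bases after the RefSeq start are shown for C1qb and C1qc, neighbours that were both low in M1. They are also shown for C3 and C5ar1, which of these 6 genes differed most with regorafenib in M0 and M2, though not in M1. The stretches are read 5′ to 3′ on the gene's strand. Capitals mark matches to the motifs described after them, on either strand.
C1qb, chr4:136886171-136886450: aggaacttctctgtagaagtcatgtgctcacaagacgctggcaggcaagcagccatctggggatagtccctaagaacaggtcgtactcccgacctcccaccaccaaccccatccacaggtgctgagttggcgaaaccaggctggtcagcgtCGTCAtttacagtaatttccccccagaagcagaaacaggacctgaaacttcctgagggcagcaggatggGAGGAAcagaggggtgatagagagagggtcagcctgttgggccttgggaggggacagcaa
C1qc, chr4:136892885-136893164: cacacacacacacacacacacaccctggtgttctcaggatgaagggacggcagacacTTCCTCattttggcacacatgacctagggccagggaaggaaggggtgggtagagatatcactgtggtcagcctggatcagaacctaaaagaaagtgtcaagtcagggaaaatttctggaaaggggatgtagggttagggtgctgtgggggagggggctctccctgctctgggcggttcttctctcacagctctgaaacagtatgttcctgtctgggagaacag
C3, chr17:57228107-57228386: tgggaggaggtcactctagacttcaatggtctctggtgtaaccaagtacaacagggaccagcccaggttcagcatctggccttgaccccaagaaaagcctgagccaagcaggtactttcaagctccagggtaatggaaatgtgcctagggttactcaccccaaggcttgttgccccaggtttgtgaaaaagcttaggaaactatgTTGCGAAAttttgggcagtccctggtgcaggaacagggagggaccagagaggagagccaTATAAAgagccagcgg
C5ar1, chr7:16259309-16259588: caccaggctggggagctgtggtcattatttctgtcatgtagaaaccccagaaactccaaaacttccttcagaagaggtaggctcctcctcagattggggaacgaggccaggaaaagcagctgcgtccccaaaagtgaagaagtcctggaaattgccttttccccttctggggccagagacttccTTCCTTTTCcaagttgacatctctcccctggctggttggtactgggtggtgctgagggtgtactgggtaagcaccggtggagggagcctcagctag

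There were 9 motifs searched on both strands, over the 300 bases from 250 before to 50 after the start, in the 6 promoters and in all 32851 promoters of the table. The core of the PU.1 site, GAGGAA, was in 3 of the 6 (C1qb, C1qc and Cfp) and in 28.3% of all promoters. The C/EBP site TTGCNNAA was in C3, at bases -45 to -38 from the start, and in 10.8% of all promoters. The TATA box, TATAAA, was in C3, at bases 15 to 20 after the start, and in C3ar1, and in 13.6% of all promoters. The core of the interferon-stimulated response element, GAAANNGAA, was in C5ar1, on the other strand at bases -66 to -58, and in 8.56% of all promoters. The short form of the cAMP response element, TGACG, was in C1qb, on the other strand at bases -99 to -95, and in 20.8% of all promoters. The AP-1 site TGANTCA was in C3ar1 and in 7.81% of all promoters. The GAS element TTCNNNGAA, the STAT6 site and the CLEAR E-box TCACGTG matched none of the 6, against 8.30%, 6.95% and 3.77% of all promoters. These matches describe letters in a window, and no binding was measured.

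All chains of C1q were low in M1 macrophages, and per length C1qc held the largest share of their transcripts in every library. Counts per library are given in the order M0 control, M0 regorafenib, M1 control, M1 regorafenib, M2 control and M2 regorafenib. C1qa had 395, 517, 50, 55, 298 and 314 counts, which scaled to 12.9, 15.7, 1.94, 2.28, 8.16 and 11.2 CPM. C1qb had 164, 259, 51, 76, 198 and 283 counts, or 5.34, 7.86, 1.97, 3.15, 5.42 and 10.1 CPM. C1qc had 2110, 2546, 257, 295, 1826 and 1765 counts, or 68.7, 77.2, 9.95, 12.2, 50.01 and 63.1 CPM. In CPM, for each chain both M1 libraries were below the other 4, and within each state the regorafenib library was above its control. The highest library exceeded the lowest by 8.10-fold for C1qa, 5.13-fold for C1qb and 7.76-fold for C1qc.

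**Figure D1:**
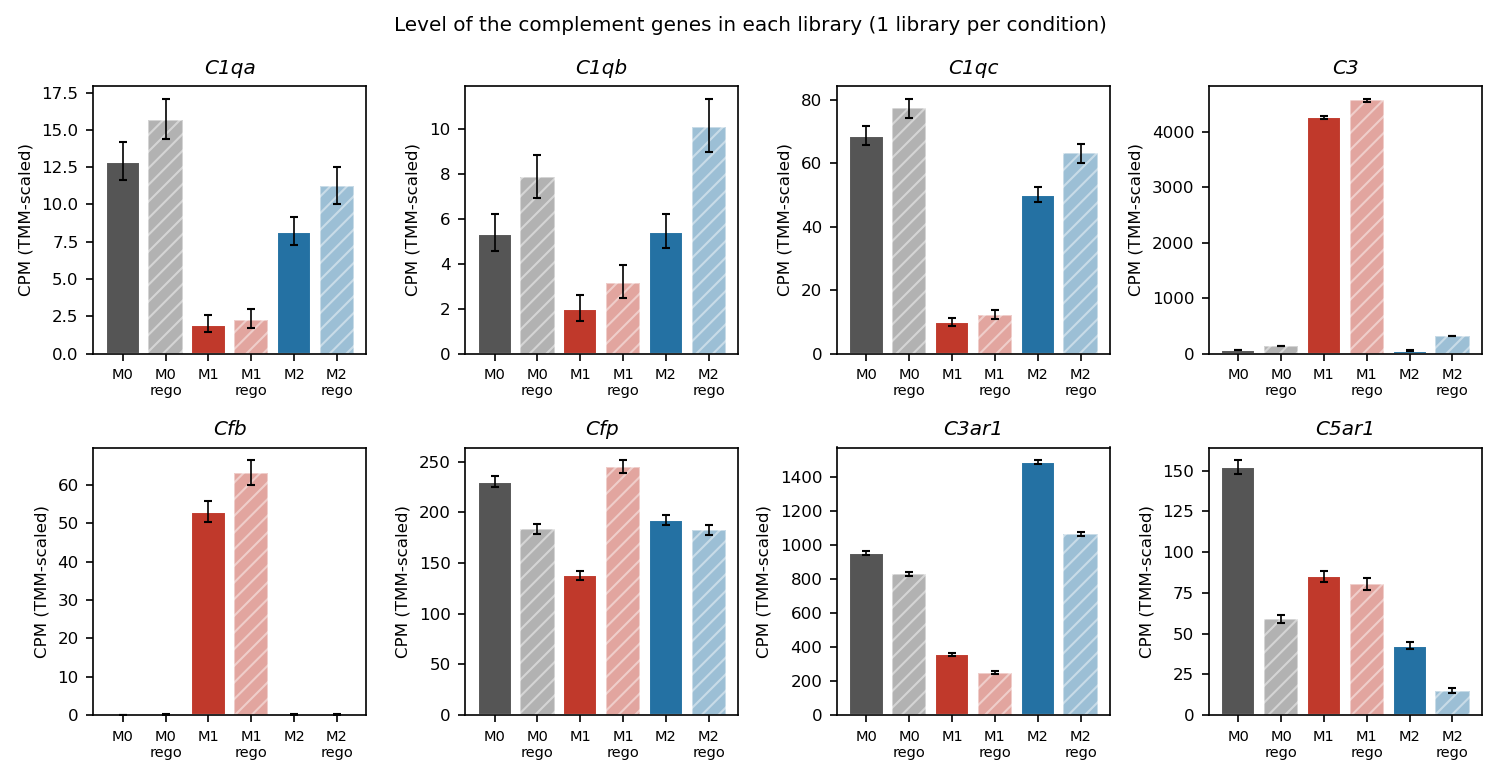
Level of each of the 8 complement genes in the 6 libraries, in CPM after TMM scaling, each panel with its own axis from 0. Solid bars are control libraries and hatched bars regorafenib libraries, with grey for M0, red for M1 and blue for M2. Error bars are exact 95% Poisson intervals of the count and cover counting error only. C3 and Cfb stand high in both M1 libraries, the C1q chains are low there, and C5ar1 is lowest in M2 with regorafenib (15.0 CPM).

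Ratios between libraries are given on the log2 scale after TMM scaling, with a 95% interval from the counts. The intervals cover counting error only, not the spread between cultures. They treat PCR reads without molecular identifiers as independent molecules, so the intervals may be too narrow even for that. A gene entered a count of 2-fold differences when a library of the pair held 10 or more of its reads. M1 to M0 in controls, the log2 ratio was -2.73 for C1qa (95% interval -3.19 to -2.31), -1.44 for C1qb (-1.92 to -0.97) and -2.79 for C1qc (-2.98 to -2.60). With regorafenib in both libraries the log2 ratios were -2.78, -1.32 and -2.66. M2 to M0 the chains stayed under 2-fold, with log2 ratios of -0.66, 0.02 and -0.46 in controls and -0.48, 0.36 and -0.29 with regorafenib.

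With regorafenib, C1qb had a log2 ratio to its control of 0.56 (0.27 to 0.85) in M0, of 0.68 (0.15 to 1.22) in M1 and of 0.90 (0.63 to 1.17) in M2. The values were smaller for C1qa, with 0.29 (0.09 to 0.48), 0.24 (-0.34 to 0.82) and 0.46 (0.23 to 0.69). They were also smaller for C1qc, with 0.17 (0.09 to 0.25), 0.30 (0.05 to 0.55) and 0.34 (0.24 to 0.43). None of these 9 ratios reached 2-fold, and the interval of C1qa in M1 included 0.

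C1q is assembled from equal numbers of its A, B and C chains, and their transcripts were not equal in level. Per kilobase of exon, C1qc made up 67.3%, 64.2%, 58.4%, 55.5%, 66.9% and 61.9% of the summed level of the chains, in the order of libraries given above. The share of C1qb was 9.29%, 11.6%, 20.6%, 25.4%, 12.9% and 17.6%. It was higher in both M1 libraries than in the other 4, and higher with regorafenib than in the control of each state. The ratio of C1qc to C1qb per length was 7.25 in M0 control and 2.19 in M1 with regorafenib, its highest and lowest values. The ratio of C1qc to C1qa varied less, between 2.65 and 3.30.

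**Figure D2:**
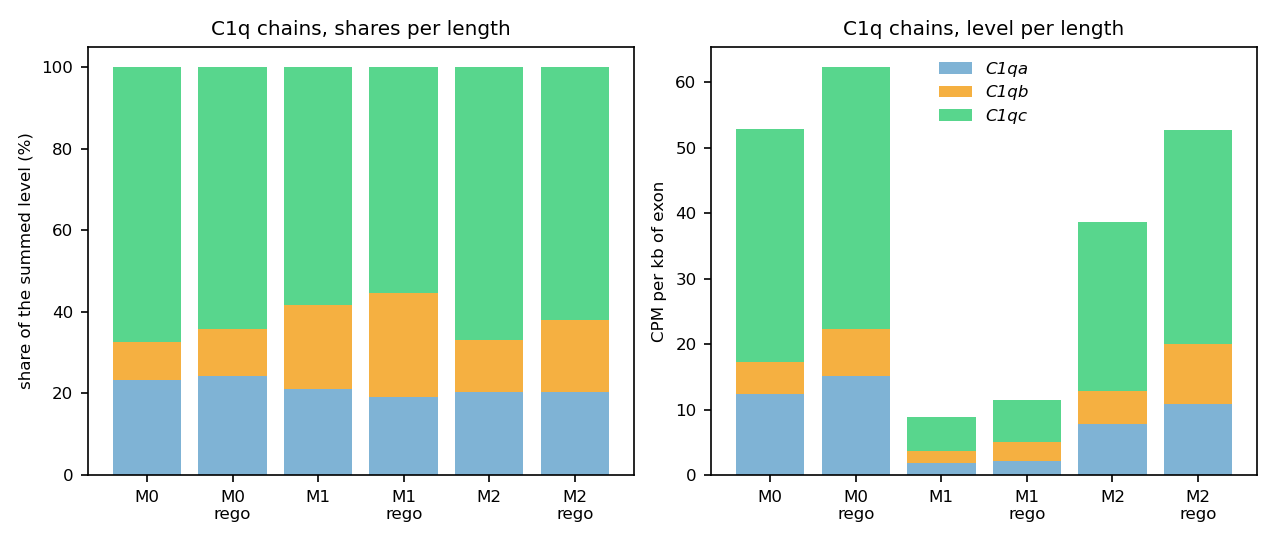
Transcripts of the C1q chains in the 6 libraries, per kilobase of exon. The left panel gives each chain's share of the summed level in percent, where C1qb is largest in M1 with regorafenib (25.4%). The right panel gives the stacked level in CPM per kb, which is 8.83 and 11.4 in the M1 libraries and 38.7 to 62.3 in the others. There is 1 library per bar.

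C3, the component on which all pathways converge, spanned the widest range of the 7 genes with counts in every library. It had 1972, 4451, 110062, 110162, 1964 and 8861 counts, or 64.2, 135, 4260, 4571, 53.8 and 317 CPM, an 85.0-fold range. The M1 libraries were far above the rest, and the M0 and M2 controls were close to each other. In M1, C3 alone took 0.349% and 0.386% of all counts of the library and was the gene at rank 52 of 21918 protein-coding genes by level per length in both. In the M0 and M2 controls its rank was 3417 and 3982, and with regorafenib it was 1533 and 580. Of the counts of the 8 genes together, with Cfb counted only outside its shared exon bases, C3 held 86.8% in the M1 control and 87.5% in M1 with regorafenib. Its share was 4.32% and then 10.3% in M0, while M2 had 2.93% and then 19.1%.

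M1 to M0 in controls, C3 was 66.4-fold higher, a log2 ratio of 6.05 (5.99 to 6.12). With regorafenib it was 33.9-fold higher, a log2 ratio of 5.08 (5.04 to 5.12), and the M0 library of that comparison already stood above its control. Regorafenib to control, C3 was 2.10-fold higher in M0 (log2 ratio 1.07, 0.996 to 1.15) and 5.89-fold higher in M2 (2.56, 2.49 to 2.63). In M1 the log2 ratio was 0.10 (0.09 to 0.11). M2 to M0, the log2 ratio of C3 was -0.26 (-0.35 to -0.16) in controls and 1.23 (1.18 to 1.28) with regorafenib.

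Factor B, the serine protease of the alternative pathway convertase, was detected in M1 libraries and hardly elsewhere. Cfb had 0, 2, 1371, 1524, 1 and 1 counts. In the 4 libraries without IFN-γ and LPS it was thus at or under 3 counts, taken here as the floor, and no ratio is given between them. M1 to M0 in controls it was at least 543-fold higher, computed against 3 counts. With regorafenib the log2 ratio was 10.03 (8.17 to 13.07) over the 2 counts in M0. Regorafenib to control in M1 it was 0.25 (0.15 to 0.36). C3 and Cfb, made as partners of one convertase, were thus both high in M1, but C3 also had 1964 to 8861 counts in M0 and M2.

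Properdin differed least over the 6 libraries. Cfp had 7067, 6048, 3560, 5905, 7022 and 5105 counts, or 230, 183, 138, 245, 192 and 182 CPM, a 1.78-fold range from the M1 control to M1 with regorafenib. The M1 control was the lowest library and M1 with regorafenib the highest. Regorafenib to control, the log2 ratio was 0.83 (0.77 to 0.89) in M1, -0.33 (-0.38 to -0.28) in M0 and -0.08 (-0.13 to -0.02) in M2, and the last became 0.00 with total counts as the scale. M1 to M0, it was -0.74 in controls and 0.42 with regorafenib, and no comparison of Cfp reached 2-fold. With total counts as the scale the M1 to M0 values were -1.18 and 0.0048.

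Both receptors for the anaphylatoxins had values below control with regorafenib in every state, for C5ar1 in M1 within counting error. C3ar1 was the most abundant of the genes per length in M0 and M2. It had 29238, 27303, 9191, 6019, 54197 and 29714 counts, or 952, 828, 356, 250, 1484 and 1062 CPM. By level per length its rank among protein-coding genes was 126 and 131 for the M0 libraries, 583 and 844 for M1, and 88 and 99 for M2. Both M2 libraries were above both M0 libraries, and both M1 libraries were below. Regorafenib to control, its log2 ratio was -0.20 (-0.22 to -0.18) in M0, -0.51 (-0.56 to -0.46) in M1 and -0.48 (-0.50 to -0.46) in M2, all under 2-fold. M1 to M0 it was -1.42 in controls and -1.73 with regorafenib, and M2 to M0 it was 0.64 and 0.36.

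C5ar1 had 4666, 1939, 2196, 1934, 1550 and 419 counts, or 152, 58.8, 85.0, 80.2, 42.5 and 15.0 CPM, a 10.1-fold range. M0 control was the highest library, M2 with regorafenib the lowest, and the M1 libraries were close to each other. Regorafenib to control, C5ar1 was 2.58-fold lower in M0 (log2 ratio -1.37, -1.45 to -1.29) and 2.83-fold lower in M2 (-1.50, -1.66 to -1.35). In M1 the log2 ratio was -0.08 (-0.17 to 0.01). M2 to M0 it was -1.84 (-1.92 to -1.76) in controls and -1.97 (-2.13 to -1.82) with regorafenib. M1 to M0 it was -0.84 in controls, or -1.28 with total counts as the scale, and 0.45 with regorafenib, or 0.036 with total counts.

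**Figure D3:**
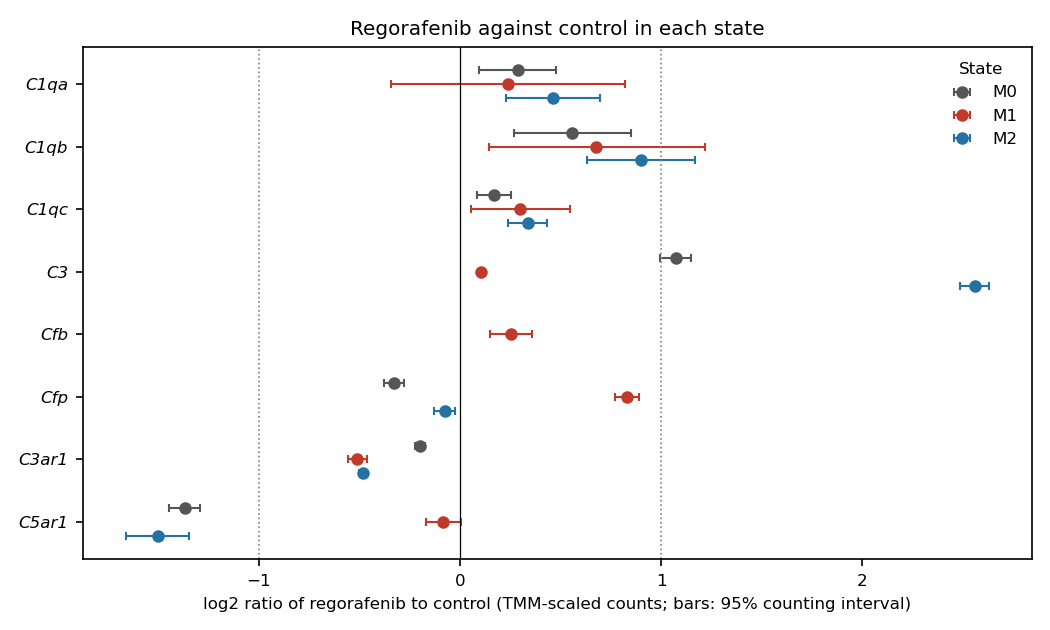
Log2 ratio of regorafenib to control for each gene (rows) in M0 (grey), M1 (red) and M2 (blue), from TMM-scaled counts of 1 library each. Bars are 95% counting intervals, and the dotted lines mark 2-fold. C3 lies past the upper line and C5ar1 past the lower line in M0 and M2, while in M1 all 8 genes lie between the lines. Cfb is drawn for M1 alone, since it was at or under 3 counts in the other libraries.

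Counted by state, regorafenib to control, 1 gene (C3) was at least 2-fold higher and 1 (C5ar1) at least 2-fold lower of the 7 genes with enough counts in M0. Over all genes of that pair 9.47% were as much higher and 10.9% as much lower. In M2 the same 2 of 7 genes passed, against 6.15% higher and 5.07% lower over all genes. In M1, 0 of 8 passed in either direction, against 1.76% and 3.46%. The value closest to the line was that of C3 in M0, whose interval reached down to 0.996. The size of the regorafenib ratio thus differed between states in the values of C3, by 1.49 on the log2 scale between M2 and M0 and by 2.46 between M2 and M1. For C5ar1, the ratio in M2 less that in M1 was -1.42, and M2 less M0 was -0.13. With 1 library per condition these differences could not be tested.

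M1 to M0, 2 genes (C3 and Cfb) were at least 2-fold higher and 4 (C1qa, C1qb, C1qc and C3ar1) at least 2-fold lower of 8, in controls and with regorafenib alike. Over all genes these shares were 17.4% and 19.7% in controls, and 16.3% and 21.6% with regorafenib. M2 to M0 in controls, 0 of 7 were higher and 1 (C5ar1) was lower, against 4.69% and 7.61%. With regorafenib, 1 (C3) was higher and 1 (C5ar1) lower, against 4.41% and 5.18%. M1 to M2, 7 of 8 genes differed by at least 2-fold in both treatments, with C3, Cfb and C5ar1 higher and the C1q chains and C3ar1 lower, against 37.8% of all genes in controls and 36.3% with regorafenib. The control log2 ratio of C5ar1 in that comparison was 1.001 (0.907 to 1.10), at the line, and with regorafenib it was 2.42 (2.27 to 2.58). Comparisons that use the same library are not independent of each other. With total counts in place of TMM, the median log2 ratio of all genes moved from -0.05 to -0.49 for M1 to M0 in controls, and the share of higher genes among those past 2-fold moved from 46.8% to 30.3%.

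**Figure D4:**
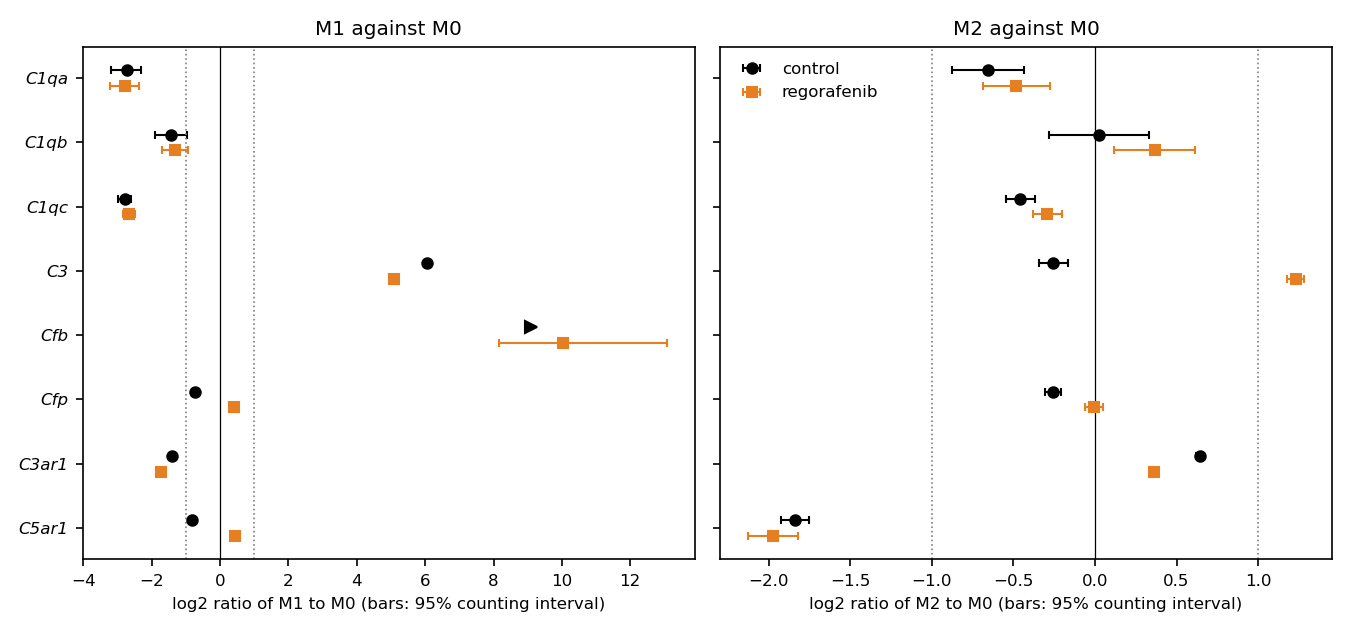
Log2 ratio of M1 to M0 (left) and of M2 to M0 (right) for each gene, with black circles for the control libraries and orange squares for the regorafenib libraries. Bars are 95% counting intervals, dotted lines mark 2-fold, and the triangle for Cfb is a lower bound against 3 counts. The C1q chains and C3ar1 lie left of the line in M1 in both treatments, and C5ar1 lies left of it in M2.

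With no replicates within a condition, the main test over the 6 libraries was an additive fit, with a term for state and a term for treatment (edgeR's quasi-likelihood test, 2 residual degrees of freedom, Benjamini-Hochberg adjustment over 14123 genes). It asks whether a gene differed with regorafenib in the same way in all states, so its error is the disagreement between states. Nothing says that the libraries came from separate cultures, and its p-values measure only the spread between these samples. For M1 minus M0 it called 6 of the 8 genes, 2 higher and 4 lower, where 17.3% of all genes were called higher and 19.3% lower. C3 rose by 5.67 on the log2 scale (SE 0.66, adjusted p = 0.00224) and Cfb rose by 10.70 (SE 0.50, adjusted p = 0.000259). The fitted size for Cfb depends on the small count that edgeR adds and is no bound. The chains of C1q fell by 2.75 (C1qa, adjusted p = 0.00101), 1.38 (C1qb, adjusted p = 0.01005) and 2.72 (C1qc, adjusted p = 0.00045), and C3ar1 fell by 1.58 (adjusted p = 0.00274). Cfp and C5ar1 gave -0.14 each, with adjusted p-values of 0.75 and 0.79.

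For M1 minus M2 the fit called 7 of the 8 genes, all but Cfp, where 18.0% of all genes were called higher and 19.5% lower. Higher in M1 were C3 (log2 change 5.04), Cfb (10.67) and C5ar1 (1.75, adjusted p = 0.0143), and lower were C1qa (-2.19), C1qb (-1.57), C1qc (-2.35) and C3ar1 (-2.07). Without a term for treatment C5ar1 lost this call (adjusted p = 0.1098), as did C1qb for M1 minus M0 (adjusted p = 0.0627). For M2 minus M0 it called 0 of the 8 and 0.22% of all genes. The log2 change of C5ar1 was -1.89 with an adjusted p of 0.135, and it passed with DESeq2's Wald test (adjusted p = 0.000227). It also passed without a filter on low counts (adjusted p = 0.00155) and without the M1 libraries (adjusted p = 0.0192), and over all alternatives its adjusted p ran from 0.000227 to 0.576. Over all genes, the Wald test called 410 of 14301, against 31 of 14123 in the main fit. The fit without a filter called 408 of 24938, and the fit without the M1 libraries 250 of 13567.

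For regorafenib the fit called 0 of the 8 genes and 0.0% of all genes, with 1646 genes at an unadjusted p under 0.05. DESeq2's Wald test called 296 genes and edgeR without a filter on low counts 333, none of them among the 8. The log2 change was 1.23 for C3 (SE 0.47, adjusted p = 0.42), -0.99 for C5ar1 (SE 0.30, adjusted p = 0.38) and 0.71 for C1qb (SE 0.21, adjusted p = 0.36). It was -0.40 for C3ar1, 0.33 for C1qa and 0.27 for C1qc, with adjusted p-values of 0.42, 0.47 and 0.45. Without the M1 libraries, where C5ar1 hardly differed, C5ar1 fell by 1.43 (adjusted p = 0.0244), and C3 was at 1.82 with an adjusted p of 0.0585. That fit called 892 of 13567 genes and had fewer residual degrees of freedom than the main fit. The fitted size depended on the state left out: without the M2 libraries C3 was at 0.59 and C5ar1 at -0.73, and without the M0 libraries they were at 1.33 and -0.78, with adjusted p-values of 0.83 or above. Over all alternatives the adjusted p ran from 0.0244 to 0.9997 for C5ar1 and from 0.0585 to 0.9999 for C3.

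Of the 54 genes of the complement list, the 8 included, 32 had at least 10 counts in a library. At or under the floor in all libraries were 19, of which 13 had 0 counts throughout. Without the 8 genes, 21 could be compared with regorafenib in each state. At least 2-fold higher were 2 in M0, 1 in M1 and 5 in M2, where 9.47%, 1.76% and 6.15% of all genes were. At least 2-fold lower were 3, 2 and 2, where 10.9%, 3.46% and 5.07% of all genes were. The median log2 ratio of the whole list was 0.12 in M0, 0.24 in M1 and 0.11 in M2, where the median of all genes was 0.00, -0.02 and -0.03. Many of these genes had few counts, and with 1 CPM added to both values the number past 2-fold in the whole list was 3 in place of 7 in M0, 0 in place of 3 in M1 and 4 in place of 9 in M2.

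Among listed genes past 2-fold whose higher library reached 100 counts, 4 stood outside the 8, and they are a protease, a regulator, a receptor chain and a lectin. C1s1, a protease of the C1 complex, went from 22 to 193 counts with regorafenib in M0 (log2 ratio 3.03, 2.39 to 3.74), and had 1101 and 1013 counts in M1. A share of 6.87% of its sequence words of 100 bases is found in C1s2, and 18.4% of its exon bases lie opposite a gene on the other strand. Cd55, a membrane protein that speeds the decay of convertases, went from 149 to 42 counts in M2 (-1.44, -1.97 to -0.94). Itgax, a chain of the receptor for C3 fragments, went from 5849 to 9449 counts in M2 (1.08, 1.03 to 1.12). Colec12, a collectin that binds carbohydrate, went from 3553 to 1651 counts in M1 (-1.01, -1.09 to -0.92).

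**Figure D5:**
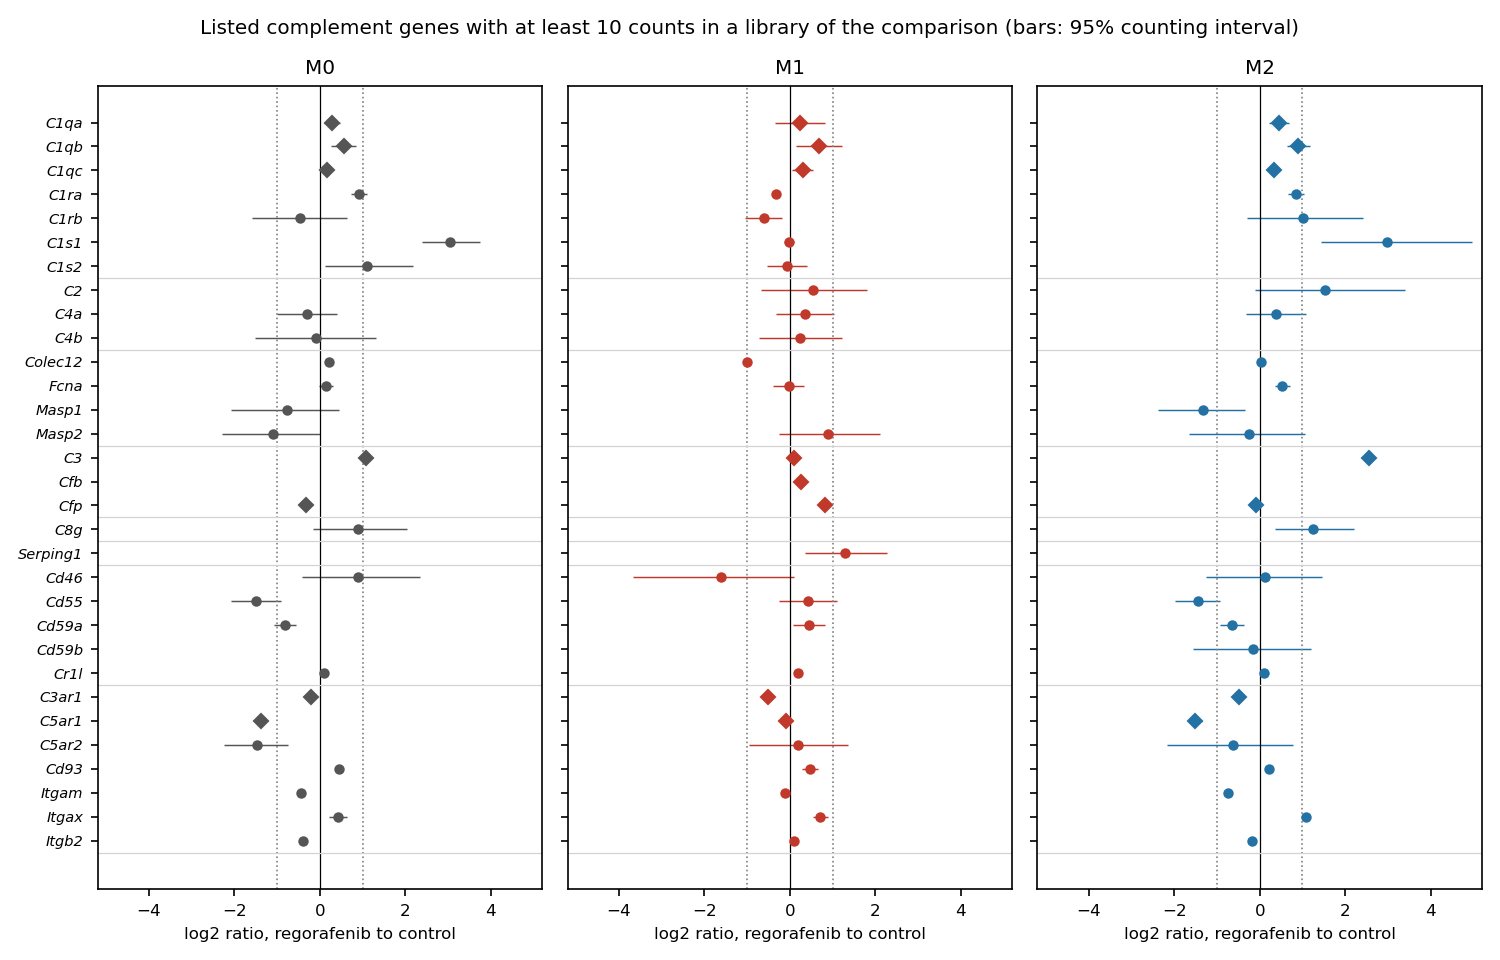
Log2 ratio of regorafenib to control in M0, M1 and M2 for the listed complement genes that reached 10 counts in either library, with 1 gene left out, ordered by role and separated by grey lines. Diamonds are the 8 genes and circles the others, bars are 95% counting intervals, and dotted lines mark 2-fold. C1s1 lies far right in M0 and M2, and C3 and C5ar1 lie outside the lines in the same states.

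In the additive fit, 23 of the other listed genes were tested. For M1 minus M0, 7 were higher and 5 lower, where 17.3% and 19.3% of all genes were. The C1 proteases were higher, with log2 changes of 2.38 for C1ra, 2.93 for C1rb, 4.31 for C1s1 and 2.30 for C1s2, while the C1q chains they bind were lower. C1ra and C1rb share 35.9% and 42.7% of their 100-base words with each other or a further gene, so their split is uncertain. Serping1, the inhibitor of these proteases, was higher by 3.33. The integrin chains Itgam and Itgax were higher by 0.93 and 0.87, and 68.7% of the exon bases of Itgam are shared with Gm49368. Among the lower genes were Cd93, with a log2 change of -5.28, Colec12 (-3.13), Masp1 (-2.31) and the ficolin Fcna (-1.79). For M1 minus M2, 7 were higher and 7 lower, where 18.0% and 19.5% of all genes were. Among them were C4b (log2 change 2.19), C8g (-2.57) and Itgax (-3.43), the last of which was higher in M1 than in M0. For M2 minus M0 the 1 called was Itgax (4.30, adjusted p = 0.00829), where 0.22% of all genes were called, and for regorafenib 0 of 23 were called.

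The genes whose levels over the 6 libraries were most like those of each of the 8 were found among 10667 other genes, by the root mean square of the difference in centred log2 level. For C3ar1 the nearest was Mocos, at 0.09, followed by Klf10 (0.11) and Ahnak (0.12). For C1qc they were Vegfb (0.11), Arsb (0.13) and Prkag2 (0.14), for C1qa Lrp5 (0.12), Lamb2 (0.12) and Arhgap18 (0.13), and for C1qb Tmem173 (0.14), Chrnb2 (0.17) and Amdhd2 (0.19). For Cfp they were Coil (0.12), Strbp (0.13) and Fdxr (0.14). The nearest genes were farther for C5ar1, with Galnt3 (0.26), F11r (0.42) and Col4a1 (0.48), for Cfb, with Serpinb2 (0.45), Vnn3 (0.52) and Adora2a (0.52), and for C3, with Maff (0.48), Tpbg (0.51) and Mefv (0.52). The 8 genes themselves were kept out of these candidates. Compared with each other in the same way, C1qa and C1qc were 0.104 apart, closer than either was to any candidate, and C1qb was 0.59 from C1qa and 0.60 from C1qc.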

How the data were processed

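RNA of BMDMs in 6 conditions was sequenced as paired reads of 100 bases, with 1 library per condition. The authors trimmed reads with cutadapt 2.4, mapped them to GRCm38 with STAR 2.7.2a and counted them per gene on Gencode M19. The deposited values are these whole-number counts per gene, without normalization. The library kit was stranded, and the strand column taken from STAR is not given in the sources used here. Of 54446 gene IDs, 53229 matched Gencode M21 with their version, 1180 without it, and 37 stayed unnamed.

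Counts were scaled with TMM (edgeR 4.0.16, R 4.3.3), with factors of 0.820 to 1.12. Ratios carry conditional exact binomial 95% intervals, and a gene needed 10 counts in a library of the pair. The additive fit (edgeR's quasi-likelihood test, adjusted p under 0.05) used genes kept by filterByExpr with its design. DESeq2 1.42.0, other scalings, thresholds and filters, and fits without a state were alternatives. A state minus another was fitted with treatment as a block, and regorafenib with state as a block. The additive fit was also run on simulated counts, with no difference between states and a regorafenib change equal in all of them. That run cannot show how the fit behaves where states disagree, as they can in these data.

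Genes named outside the 8 were those past 2-fold with regorafenib whose higher library reached 100 counts, those called in the additive fit, and the 3 nearest patterns of each gene. The members and lists were chosen with earlier results of these data known. The result of 1 listed gene is not reported here. Figures were drawn with matplotlib 3.10.9 in Python 3.11.15.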

Additional observations from a re-analysis of the deposited data

Results flagged for a closer look

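Several genes had log2 ratios of opposite sign in different states or treatments. Each ratio rests on 1 library a side, and none of these differences was tested. C3 for M2 to M0 was at -0.26 in controls and at 1.23 with regorafenib. Cfp for regorafenib to control was at -0.33 in M0, at 0.83 in M1 and at -0.076 in M2, and the last became 0.00 with total counts as the scale. Cfp was at -0.74 for M1 to M0 in controls and at 0.42 with regorafenib, and for M1 to M2 at -0.48 and 0.43. C5ar1 for M1 to M0 was at -0.84 in controls and at 0.45 with regorafenib. With total counts the regorafenib values of these comparisons were 0.0048 and 0.039 for Cfp and 0.036 for C5ar1.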

How the results depend on the processing

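The labels give no replicate numbers, so libraries were matched by state or treatment alone, and without the block for state 0 of the 7 genes tested were called for regorafenib, with Cfb left out by the filter. With 1 CPM added to both values, the genes of the complement list past 2-fold with regorafenib numbered 3 in M0 (7 as reported), 0 in M1 (3) and 4 in M2 (9), and without a minimum of counts they numbered 11 in M0 and 7 in M1. At a threshold of 1.5-fold, 2 of the 8 genes passed with regorafenib in M1 (0 as reported), where 13.4% of all genes did, and 3 for M2 to M0 in controls (1), where 23.7% did. In the additive fit, 1 gene (C5ar1) was called for regorafenib without the M1 libraries, of 7 tested since Cfb was left out (0 of 8 as reported). Over all genes that fit called 892 of 13567. For M2 minus M0, 1 gene (C5ar1) was called with DESeq2's Wald test, without a filter on low counts and, of the same 7, without the M1 libraries (0 of 8 as reported). Over all genes, 410 of 14301, 408 of 24938 and 250 of 13567 were called, against 31 of 14123. Without a term for treatment, C1qb for M1 minus M0 (-1.36, adjusted p = 0.0627) and C5ar1 for M1 minus M2 (1.52, adjusted p = 0.1098) lost their calls, and over all alternatives their adjusted p ran from 0.00127 to 0.0627 and from 4.17e-05 to 0.1098. A filter by treatment group, chosen after seeing the data, left Cfb out of the fit.

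Of 272 recomputed ratios of the 8 genes, 4 changed sign, all between -0.07 and 0.02 under the alternative, and 4 changed side of 2-fold. With total counts these were Cfp (-1.18) and C5ar1 (-1.28) for M1 to M0 in controls and C5ar1 (0.65) for M1 to M2 in controls, and with 1 CPM added the last was 0.98. Total counts also moved the median of all genes to -0.51 for M1 to M0 with regorafenib, and to -0.42 and -0.44 for M1 to M2 in controls and with regorafenib. Among genes past 2-fold in these 3 comparisons the share of higher ones moved from 43.1%, 47.5% and 44.9% to 27.7%, 33.5% and 30.4%. Depth limits Cfb outside M1, where 0 to 2 counts give no ratio, and C1qa and C1qb in M1, with 50 to 76 counts. The counts of Cfb are also limited by the 79.5% of its exon bases that are shared with Gm20547.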
